A study of Mus musculus with 10 samples.

Results

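Actins, cofilins and profilins build and turn over the actin filaments of the cell. Ribosome footprints on 8 genes of this system were followed across development of the mouse neocortex. The genes are Actb (ENSMUSG00000029580) and Actg1 (ENSMUSG00000062825), which encode the cytoplasmic β- and γ-actins, Cfl1 (ENSMUSG00000056201), Cfl2 (ENSMUSG00000062929) and Dstn (ENSMUSG00000015932), which encode cofilin-1, cofilin-2 and destrin, Pfn1 (ENSMUSG00000018293) and Pfn2 (ENSMUSG00000027805), which encode the profilins, and Capzb (ENSMUSG00000028745), which encodes the β subunit of capping protein. They were listed by name as related parts of this system, at a time when earlier results of these data were known, and are 8 of the 22373 genes in the count table. All 8 were among the 13484 genes with at least 32 footprints, summed over both libraries, in at least 1 stage.

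The study used Ribo-seq, which sequences the stretches of mRNA that an 80S ribosome shields from nuclease, to follow protein synthesis while the neocortex makes its neurons. Tissue came from wild-type CD-1 mice at the day of birth (P0) and at 4 embryonic stages named by days of timed pregnancy, E12.5, E14, E15.5 and E17. Each stage had 2 libraries, each library was a pool of many brains of both sexes, and all lysates were digested with RNase T1 and RNase A without cycloheximide. No group carried a transgene or a treatment. A footprint count rises with the amount of an mRNA and with the number of ribosomes on it, and the counts alone do not separate these. In whole tissue, fewer cells of a type and less RNA per cell also cannot be told apart.

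Actin monomers join filaments mainly at the barbed end and leave at the pointed end. Profilins bind monomers and hand them to growing barbed ends, cofilins and destrin sever and disassemble older filaments, and capping protein, a dimer of an α and a β subunit, blocks barbed ends. In the developing cortex these proteins act in dividing progenitors, in migrating neurons and in growth cones, the moving tips of axons.

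The libraries held between 7544404 counts, in P0 replicate 1, and 36129988 counts, in E14 replicate 2. Levels are given in CPM, footprints relative to library size, on sizes scaled by TMM, a factor that keeps most genes level between libraries. Genes of replication-dependent histones (66 genes named Hist) took 34.0 to 38.5% of counts at E12.5 and 6.32 to 9.83% at P0, so the choice of scaling matters. With total counts in place of TMM, the median gene was higher by 0.29 on the log2 scale at E15.5 against E14 and by 0.51 at P0 against E12.5. Of the genes called, the share that was higher then rose from 45.6 to 72.7% and from 48.5 to 72.0%, and it rose from 77.9 to 90.9% for E14 against E12.5 and from 46.1 to 63.4% for P0 against E17. All 11 neocortex markers were detected in every library, with a summed level of 774 to 1197 CPM. The P0 libraries differed from each other more than those of other stages, and the log2 ratio of one replicate to the other had an SD of 0.53 over 4559 genes, against 0.13 to 0.22 in the embryo.

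The P0 libraries also differed over the 8 genes. Replicate 1 of P0 lay below replicate 2 by 0.93 on the log2 scale for Cfl2 (log2 ratio -0.93), by 0.76 for Dstn (-0.76), by 0.59 for Pfn2 (-0.59) and by 0.28 for Cfl1 (-0.28). It lay above replicate 2 by 0.45 for Actb, and the libraries were close for Actg1 (0.03), Pfn1 (0.02) and Capzb (0.10). Values at P0 are therefore given with and without each of these libraries where a call changes. A fit that leaves out 1 of them takes the spread from the other stages, whose libraries lay closer together, so its adjusted p does not carry the difference between the P0 libraries and supports no change at birth.

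**Figure D1:**
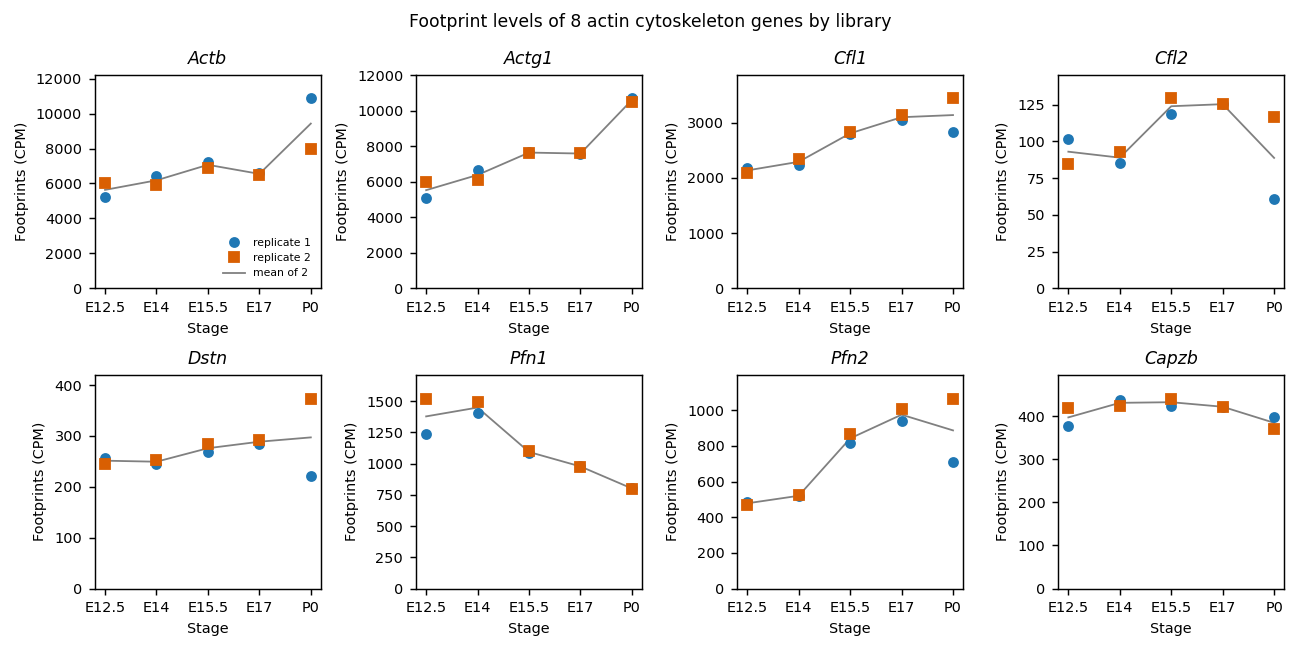
Footprint level (CPM, TMM-scaled, linear axis from 0) of each of the 8 genes at the 5 stages. Circles are replicate 1, squares replicate 2 and the line joins the means of 2. Pfn1 ends lowest at P0, Pfn2 steps up between E14 and E15.5, both actins are highest at P0, and the P0 squares and circles lie far apart for Cfl2, Dstn, Pfn2 and Actb.

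Together the 8 genes took a growing share of all footprints, from 1.27 and 1.36% of counts at E12.5 to 2.16 and 2.13% at E15.5 and 3.24 and 2.90% at P0. This share is of all counts, of which the Hist genes took less with age. On the TMM scale the summed level of the 8 genes was 14929 and 16856 CPM at E12.5 and 26612 and 24658 at P0, a smaller rise. Actb and Actg1 made up most of this sum and of its rise. Their stage means were 5634 and 5524 CPM at E12.5 and 9431 and 10605 at P0. Pfn1 went the other way, from 1378 to 801. Calls required a difference of at least 1.25-fold with an adjusted p under 0.05 (limma-voom, Benjamini-Hochberg over all 13484 genes). Between E12.5 and P0, 5 of the 8 genes were called, beside 62.1% of all genes tested. Actb, Actg1, Cfl1 and Pfn2 were higher at P0 (4 of 8, beside 30.1% of all genes) and Pfn1 was lower (1 of 8, beside 32% of all genes). The same 5 genes passed the F test across the 5 stages, which 63.8% of all genes passed. It was passed by 7 genes, with Cfl2 and Dstn added, without either P0 library, by 7 with total counts (Cfl2, Dstn and Capzb added, Pfn1 lost) and by 6 with sample quality weights (Cfl2 added). The number in the main fit was thus near the background. The share of all genes that passed the F test was not computed for the other settings. The median log2 change of the 8 genes was 0.37, beside -0.01 over all genes tested.

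Between adjacent stages the calls fell into 2 steps. From E14 to E15.5, 2 of 8 genes were called, beside 36.1% of all genes, with Pfn2 higher (16.5% of all genes) and Pfn1 lower (19.6%). From E17 to P0, 2 of 8 were called, Actb and Actg1, both higher, beside 20.5% of all genes in either direction and 9.46% in that direction. From E12.5 to E14, 0 of 8 were called, beside 0.638% of all genes, and from E15.5 to E17, 0 of 8, beside 9.04%. In both of these steps limma-voom gave 0 members at an unadjusted p under 0.05, and edgeR and DESeq2 also called 0. The libraries of adjacent stages did not overlap in CPM for 4, 7, 7 and 5 of the 8 genes in the 4 steps in order of age, beside 53.2, 76.9, 67.8 and 55.8% of all genes. For P0 against E12.5 they did not overlap for 5 of 8, beside 75.2%.

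**Figure D2:**
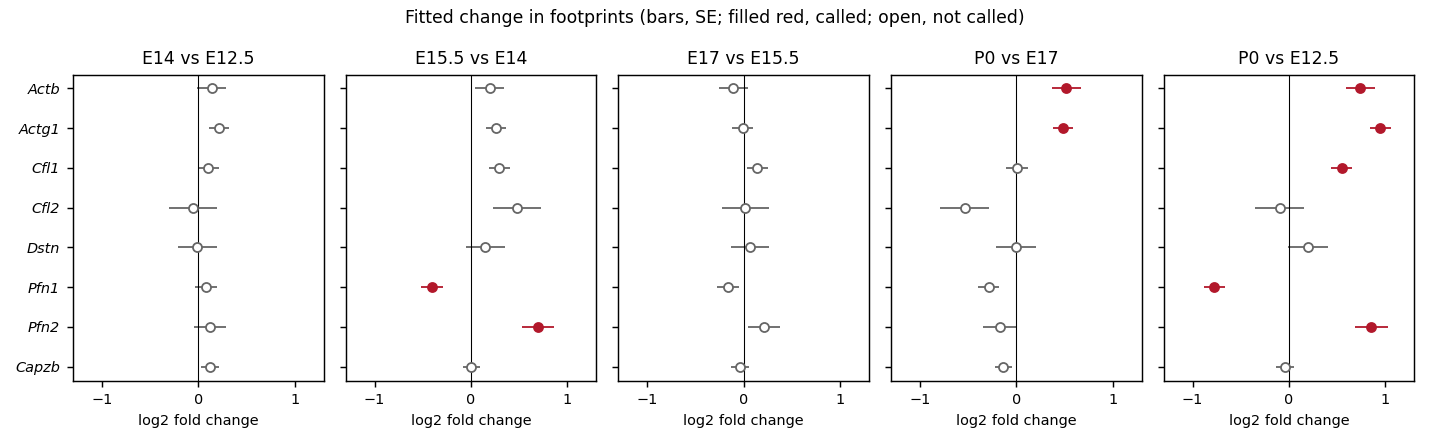
Fitted log2 fold change of the 8 genes in each of the 4 steps and from E12.5 to P0 (later minus earlier stage, points with SE as bars). Filled red points were called. Calls appear for Pfn1 and Pfn2 at E15.5 against E14, for both actins at P0 against E17, and for 5 genes at P0 against E12.5.

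The cytoplasmic actins ended at their highest level. Actg1 measured 5066 and 5982 CPM at E12.5 and 6647 and 6115 at E14. It reached 7661 and 7621 at E15.5, 7573 and 7600.1 at E17, and 10699 and 10509.9 at P0. Both E12.5 libraries were the lowest and both P0 libraries the highest, no stages overlapped, and E15.5 and E17 lay close together (fitted log2 change -0.01). Between E12.5 and P0 Actg1 rose 1.93-fold (log2 0.95, SE 0.11, adjusted p = 9.69e-05). The rise from E17 to P0 was 1.40-fold (log2 0.48, SE 0.11, adjusted p = 0.0169). That rise was not called without E17 replicate 1 or without E17 replicate 2. Each such fit leaves 1 library at E17, and fewer of all genes were called in it as well. The size of the rise stayed between 0.47 and 0.53. The step from E14 to E15.5 was called only with total counts (log2 0.56, adjusted p = 0.00239), where the median gene was also higher.

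Actb followed a similar course with a wider spread at P0. Its levels were 5217 and 6052 CPM at E12.5 and 6435 and 5929 at E14. Later levels were 7241 and 6898 at E15.5, 6588 and 6511 at E17, and 10880.3 and 7981 at P0. The P0 libraries lay above all others, and E12.5 and E14 overlapped. Over the whole period Actb rose 1.67-fold (log2 0.74, SE 0.15, adjusted p = 0.00275). Leaving out P0 replicate 1 gave a change of 0.51 and leaving out P0 replicate 2 gave 0.99. In a fit of E12.5 and P0 alone the adjusted p was 0.0494, just under the threshold. At E15.5 against E14 Actb was called with total counts only (log2 0.49, adjusted p = 0.0318).

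The rise of Actb from E17 to P0 was less firm. It was 1.43-fold (log2 0.52, SE 0.15, adjusted p = 0.0442), near the threshold. It was not called when any library other than P0 replicate 2 was left out, with adjusted p between 0.0585 and 0.184. Leaving out P0 replicate 1 gave 0.29 and leaving out P0 replicate 2 gave 0.76. It was also not called without a filter on low counts, with sample quality weights, in a fit of E17 and P0 alone, or with the replicate number as a block (adjusted p = 0.0636, 0.0682, 0.221 and 0.0621). Of all genes, 12.6, 5.18, 0 and 15.8% were called in these settings, in the same order, against 20.5% in the main fit. The first share is of 19369 genes, because the filter was off, and 2436 genes were called there against 2767 in the main fit. The lost calls are thus not particular to the actins. Actg1, for the same step, was not called in the fit of E17 and P0 alone (0.146) or with sample quality weights (0.0897).

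The proteins made from Actb and Actg1 are nearly identical, and the muscle actins are close relatives of both. The study kept reads that match several places, and how they were treated in the count table is not stated, so the split of footprints between actin genes is uncertain. The ratio of Actg1 to Actb counts within a library removes scaling. It went from 0.971 and 0.988 at E12.5 to 1.03 and 1.03 at E14. It was 1.06 and 1.10 at E15.5, 1.15 and 1.17 at E17, and 0.983 and 1.32 at P0. The embryonic libraries were ordered by stage without overlap, while P0 replicate 1 lay among those of E12.5 and P0 replicate 2 above all others. Over the 5 stages the ratio did not pass an exact permutation test (two-sided, p = 0.431, adjusted over 4 ratios 0.431, log2 change from E12.5 to P0 0.22). It passed without P0 replicate 1 (adjusted p = 0.00423, log2 change 0.43) and without P0 replicate 2 (adjusted p = 0.00635, log2 change 0.01).

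Actin genes are known targets of serum response factor, which binds the CArG box. The promoter windows of RefSeq, from 250 bases before to 50 bases after the gene start (build GRCm38.p6), were searched for this motif, whose reverse complement is the same pattern, so that both strands were read at once. Windows were present for 7 of the 8 genes, with Actb missing from the table, and 1 of the 7, Actg1, held a CArG box. Over all genes with a window, 488 of 27025, or 1.81%, held one. Of 89 genes with a window in the wider actin lists described below, 4 held one. These were Acta1, Actc1, Arpc4 and Cnn2, of which Arpc4 and Cnn2 do not encode actins. The stretches around it are shown for Actg1 and for the muscle actins Acta1 and Actc1, because these are the actin genes in which it was found, with the CArG box in capitals and 10 bases on each side:
Actg1: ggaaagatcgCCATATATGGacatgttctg
Acta1: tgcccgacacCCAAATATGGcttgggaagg
Actc1: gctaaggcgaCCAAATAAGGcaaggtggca
They lie on the minus strand at chr11:120348566-120348595, chr8:123894829-123894858 and chr2:114052903-114052932. The box starts 90, 73 and 47 bases before the gene start. A match is a description of the letters and not a measured binding site.

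Cfl1, the main cofilin of non-muscle cells, rose with age. It measured 2187 and 2087 CPM at E12.5 and 2238 and 2348 at E14. Later values were 2791 and 2827 at E15.5, 3056 and 3148 at E17, and 2837 and 3445 at P0. The mean was higher at each stage than at the one before, and of neighbouring stages only E17 and P0 overlapped. At P0 Cfl1 was 1.46-fold higher than at E12.5 (log2 0.54, SE 0.11, adjusted p = 0.00253). Leaving out 1 library gave log2 changes of 0.44 to 0.69. The call was lost in a fit of E12.5 and P0 alone (adjusted p = 0.0552). No single step was called. The largest, from E14 to E15.5, was 1.23-fold (log2 0.29, SE 0.11, adjusted p = 0.067), below the fold threshold, and was called with total counts only (log2 0.59, adjusted p = 0.00317).

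Cfl2, the cofilin best known from muscle, did not pass the F test over the 5 stages (adjusted p = 0.189), but passed it without P0 replicate 1 (0.00405), without P0 replicate 2 (0.000677), with total counts (0.0286) and with sample quality weights (0.00611). It measured 102 and 84.4 CPM at E12.5 and 85.2 and 92.6 at E14. Later values were 119 and 129 at E15.5, 125 and 125 at E17, and 60.8 and 117 at P0. The 4 libraries of E15.5 and E17 lay above all the others, and P0 replicate 1, with 559 footprints, was the lowest of all. From E14 to E15.5 the fitted change was 1.39-fold (log2 0.48, SE 0.25, adjusted p = 0.173). It was called without P0 replicate 1 (adjusted p = 0.00442), without P0 replicate 2 (0.00473), in a fit of E14 and E15.5 alone (0.00281) and with sample quality weights (0.00802), at nearly the same size (0.47 to 0.48). With total counts it was 0.77 and called (adjusted p = 0.0322).

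The course of Cfl2 at birth depended on which P0 library was used. From E17 to P0 its fitted log2 change was -0.53 (SE 0.25, adjusted p = 0.167), -0.10 without P0 replicate 1 and -1.01 without P0 replicate 2 (adjusted p = 0.00188). Against E12.5 the change at P0 was -0.09, with 0.34 without P0 replicate 1 (adjusted p = 0.0298) and -0.57 without P0 replicate 2 (adjusted p = 0.00712). The 2 P0 libraries thus gave opposite directions against E12.5, and each of these fits rests on 1 P0 library with the spread of the other stages.

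Dstn encodes destrin, also called actin-depolymerizing factor. It measured 257 and 246 CPM at E12.5 and 245 and 253 at E14, followed by 268 and 284 at E15.5, 285 and 292 at E17, and 221 and 373 at P0. The embryonic libraries lay within a narrow band and the P0 libraries were the lowest and the highest of all 10. It did not pass the F test (adjusted p = 0.742), but passed it without P0 replicate 1 (0.00140), without P0 replicate 2 (0.0197) and with total counts (0.0247). The log2 change from E12.5 to P0 was 0.20 (SE 0.20, adjusted p = 0.421), and 0.73 with total counts, which was called (adjusted p = 0.0098). Without P0 replicate 1 that change was 0.58 (adjusted p = 0.000293), and without P0 replicate 2 it was -0.15 (adjusted p = 0.151). From E17 to P0 it was -0.0032, with 0.37 without P0 replicate 1 (adjusted p = 0.0102) and -0.36 without P0 replicate 2 (adjusted p = 0.0154).

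Within a library the ratio of Dstn to Cfl1 counts was lower at each later embryonic stage. It was 0.117 and 0.118 at E12.5 and 0.110 and 0.108 at E14. It was 0.0960 and 0.100 at E15.5, 0.0932 and 0.0929 at E17, and 0.0778 and 0.108 at P0. The 8 embryonic libraries were ordered by stage without overlap, while P0 replicate 1 lay below them all and P0 replicate 2 among those of E14. Over the 5 stages the ratio did not pass the exact permutation test (adjusted p = 0.317, log2 change from E12.5 to P0 -0.36). It passed at adjusted p = 0.00423 without P0 replicate 1 (log2 change -0.12) and without P0 replicate 2 (-0.60).

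The ratio of Cfl2 to Cfl1 counts was level in the embryo and lower at birth. It lay between 0.0381 and 0.0464 in the 8 embryonic libraries and was 0.0214 and 0.0339 at P0. Both P0 libraries lay below all the others. The log2 change from E12.5 to P0 was -0.69, and the exact permutation test gave p = 0.0254, which after adjustment over 4 ratios was 0.0508, just above the threshold. Leaving out P0 replicate 1 gave -0.36, and leaving out P0 replicate 2 gave -1.02, the only library whose omission made it pass (adjusted p = 0.0254).

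The profilins moved in opposite directions. Pfn1, the profilin of most cell types, measured 1235 and 1520.2 CPM at E12.5 and 1403 and 1493 at E14. Later values were 1085 and 1101 at E15.5, 978 and 976 at E17, and 806 and 795 at P0. Only E12.5 and E14 overlapped, and each later stage lay below the one before it. Over the whole period Pfn1 fell by 0.77 on the log2 scale, or 1.71-fold (SE 0.11, adjusted p = 0.00039). Leaving out 1 library gave changes of -0.93 to -0.63. In a fit of E12.5 and P0 alone the adjusted p was 0.0242. From E14 to E15.5 it fell by 0.41, or 1.32-fold (SE 0.11, adjusted p = 0.0216). From E17 to P0 the fitted change was -0.29 (SE 0.11, adjusted p = 0.10).

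Pfn2, the profilin enriched in neurons, measured 488 and 468 CPM at E12.5 and 518 and 522 at E14. Later values were 818 and 865 at E15.5, 941 and 1009 at E17, and 708 and 1065 at P0. The step between E14 and E15.5 was the widest, and the P0 libraries overlapped those of both E15.5 and E17. From E14 to E15.5 Pfn2 rose 1.62-fold (log2 0.69, SE 0.17, adjusted p = 0.0133). Over the whole period it rose 1.81-fold (log2 0.85, SE 0.17, adjusted p = 0.00231). The second call held without any one of the 10 libraries, with a log2 change of 0.60 without P0 replicate 2 and 1.16 without P0 replicate 1. From E17 to P0 the fitted change was -0.17 (adjusted p = 0.492). Leaving out P0 replicate 1 gave 0.13, and leaving out P0 replicate 2 gave -0.43, which was called (adjusted p = 0.0076).

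With all libraries kept, the call at E15.5 held in each other setting for Pfn2, and for Pfn1 in each but total counts. Neither call held when 1 of the 4 libraries of E14 and E15.5 was left out, which leaves 1 library in a stage. Fewer of all genes were called in those fits as well. For Pfn1 the adjusted p was 0.0612 and 0.117 when E14 replicate 1 or 2 was left out, and 0.116 and 0.102 when E15.5 replicate 1 or 2 was. For Pfn2 it was 0.0668, 0.0655, 0.0591 and 0.0771 in the same order. In these fits the stage with 1 library left was assumed to vary like the others, and the changes themselves stayed between -0.46 and -0.37 for Pfn1 and between 0.66 and 0.73 for Pfn2. With total counts in place of TMM, Pfn1 was not called at E15.5 (log2 -0.11, adjusted p = 0.408) or at P0 against E12.5 (-0.24, adjusted p = 0.063), and it missed the F test (adjusted p = 0.0683). Relative to the median of all genes, its changes were -0.40 and -0.76 under both scalings. A change of scaling moves all genes by nearly the same amount, so this agreement was fixed by the arithmetic and is no support for either call.

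The ratio of Pfn2 to Pfn1 counts within a library combines these changes and does not depend on scaling. It was 0.395 and 0.308 at E12.5 and 0.369 and 0.350 at E14. It was 0.755 and 0.786 at E15.5, 0.961 and 1.03 at E17, and 0.878 and 1.34 at P0. The 4 libraries of E12.5 and E14 reached at most 0.395, and the 6 later libraries were at 0.755 or above. Gene length cancels in a change of this ratio between stages, but not in the ratio itself, so a ratio of 1 does not mean equal synthesis. The mean ratio was 2.14-fold higher at E15.5 than at E14 and 3.11-fold higher at P0 than at E12.5 (log2 1.10 and 1.64).

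Over the 5 stages the Pfn2 to Pfn1 ratio gave p = 0.018 in the exact permutation test, and 0.0508 after adjustment over 4 ratios, which missed the threshold. The smallest p this test can give is 0.00106. Without P0 replicate 1 the adjusted p was 0.00423 (log2 change from E12.5 to P0 1.94), and without P0 replicate 2 it was 0.0127 (1.33). Without any one of the other 8 libraries it stayed above 0.05, up to 0.127.

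**Figure D3:**
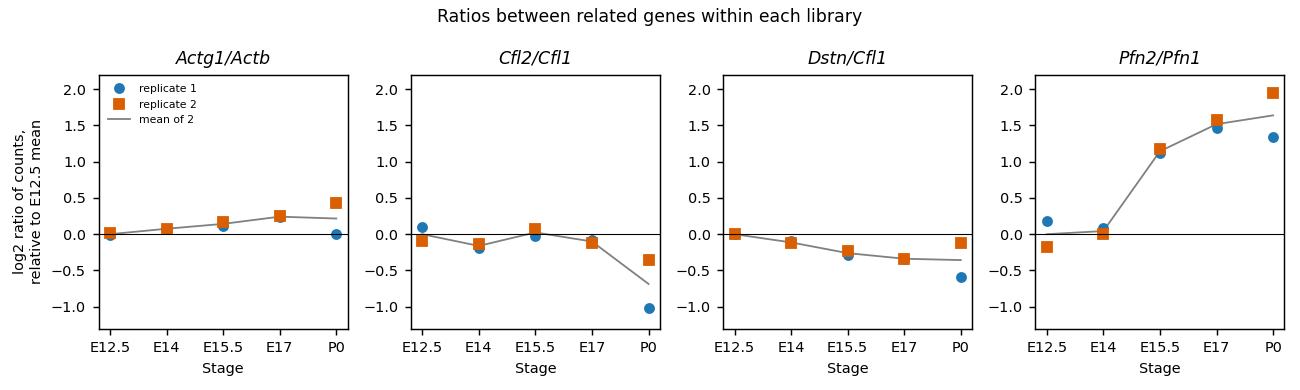
Log2 ratio of counts between related genes within each library, relative to the mean of the E12.5 libraries (0 line). Circles are replicate 1, squares replicate 2 and the line joins the means of 2. Pfn2/Pfn1 steps up by 1.10 between E14 and E15.5, Actg1/Actb and Dstn/Cfl1 are ordered by stage until E17, and Cfl2/Cfl1 is level until it is lower at P0.

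Capzb had the narrowest range of stage means of the 8 genes. It measured 377 and 418 CPM at E12.5 and 438 and 425 at E14, and then 424 and 441 at E15.5, 422 and 423 at E17, and 399 and 371 at P0. The highest stage mean, at E15.5, was 1.12 times the lowest, at P0, and Capzb did not pass the F test (adjusted p = 0.359). At P0 against E12.5 the log2 change was -0.04 (SE 0.09, adjusted p = 0.692). With total counts in place of TMM it was 0.49 (adjusted p = 0.0015) and the F test was passed (adjusted p = 0.00313). Measured from the median gene the change was -0.03 under both scalings, an agreement fixed by the arithmetic, as for Pfn1.

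Over the 10 libraries, on log2 CPM, the members with the most similar courses were Cfl1 and Pfn2 (Pearson r = 0.98), followed by Actb and Actg1 (0.92), and the most opposed were Cfl1 and Pfn1 (-0.88) and Actg1 and Pfn1 (-0.86). Pfn1 and Pfn2 stood at -0.81. These values describe 10 libraries that share 5 stages and their depth, and have no p.

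Outside the 8 genes, the 2 whose courses were most like each member were named by Pearson's r over the 10 libraries, on log2(CPM + 0.5), among 4486 genes averaging at least 500 counts. Pfn2 ran closest to Fgf13 (r = 0.997) and Tbc1d14 (0.992), Cfl1 to Dnajc5 (0.995), which encodes a synaptic vesicle chaperone, and Stx7 (0.992), which encodes an endosomal syntaxin. Pfn1 ran closest to Rpl10a (0.992), a protein of the large ribosomal subunit, and Ints5 (0.987), of the Integrator complex. Actg1 ran closest to Klc2 (0.990), a kinesin light chain, and Qdpr (0.985), and Actb to Sin3b (0.985) and Lypla2 (0.978). Cfl2 ran closest to Eif4g2 (0.982) and Zfp68 (0.979). The likeness was lower for Dstn, with Kansl2 (0.969) and Calm2 (0.959), and for Capzb, with Wnt7b (0.939) and Rnf44 (0.936).

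The wider actin system was described by 107 other genes in 8 lists, of which 106 were in the table and 99 were tested. From E12.5 to E14 limma-voom called 0 of them and edgeR 0, DESeq2 called 5, and 15 had p under 0.05 in limma-voom before adjustment. From E14 to E15.5, 23 were higher and 24 lower (47.5% called, beside 36.1% of all genes), from E15.5 to E17, 3 and 5 (8.08%, beside 9.04%), and from E17 to P0, 11 and 11 (22.2%, beside 20.5%). The 3 and 5 became 0 and 0 without any one of the 4 libraries of E15.5 and E17, where at most 18 of all genes were called, and 1 and 1 with the replicate block. At P0 against E12.5, 41 were higher and 31 lower (72.7%, beside 62.1% of all genes). Over all genes tested 30.1% were higher and 32% lower in that comparison, and the counts of each list stand beside these shares. No list was tested against other genes.

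Filament crosslinking and side-binding proteins bundle filaments or tie them to other structures. Of 26 tested, limma-voom called 15 lower and 0 higher at E15.5 against E14 (1 higher at an unadjusted p under 0.05), beside 19.6% lower and 16.5% higher over all genes, and 16 were lower and 2 higher at P0 against E12.5, with a median log2 change of -1.43 beside -0.01 over all genes. Flna, encoding the crosslinker filamin A, fell from 57.6 CPM at E12.5 and 49.5 at E14 to 17.2 at E15.5 and 4.83 at P0 (log2 -3.58 from E12.5 to P0, adjusted p = 5.8e-07). Dbn1, encoding the neuronal side-binding protein drebrin, rose from 318 to 406 CPM (log2 0.35, adjusted p = 0.0162). Several genes of this list, such as Flna, are also made in connective tissue and blood vessels. Over the same step from E14 to E15.5, all 7 markers of meningeal fibroblasts and all 6 of endothelium were lower, and their part in these results was not tested.

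The Arp2/3 complex nucleates branches from existing filaments. Of its 10 genes, 7 were higher and 1 lower at P0 against E12.5, beside 30.1% and 32% of all genes, with a median log2 change of 0.58. Actr3b, an Arp3 subunit, rose from 6.16 to 20.8 CPM (log2 1.78, adjusted p = 0.000107), and Arpc1b, another subunit, fell to 5.80 (log2 -1.20, adjusted p = 0.000671). Of the 10 tested activators of the complex, 6 were higher and 3 lower (90% called). Wasf1 and Wasf2, which encode the WAVE1 and WAVE2 activators, moved apart, Wasf1 from 26.5 to 89.2 CPM (log2 1.76, adjusted p = 7.55e-06) and Wasf2 from 12.3 to 3.37 (log2 -1.85, adjusted p = 2.44e-05).

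Partners and regulators of the 8 genes were divided. Among capping proteins, 5 of 10 were higher and 3 lower at P0 against E12.5 (80% called, beside 62.1% of all genes). Capza1, an α subunit that pairs with the product of Capzb, fell from 60.0 to 27.4 CPM (log2 -1.11, SE 0.18, adjusted p = 0.00093), beside -0.04 for Capzb, a difference that was not tested. Capza2, the other α subunit tested, had more footprints and was not called. It measured 135 CPM at E12.5 and 138 at P0 (log2 -0.13, SE 0.42, adjusted p = 0.81). Tmod2, a neuronal tropomodulin that caps pointed ends, rose from 109 to 595 CPM (log2 2.44, adjusted p = 1.03e-06).

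Of the 6 tested kinases and phosphatases that switch cofilin, 3 were higher and 1 lower (66.7% called, near the 62.1% of all genes). Limk2, a kinase that inactivates cofilin, rose from 12.9 to 32.3 CPM (log2 1.32, adjusted p = 2.5e-05). The kinase gene Tesk1 was also higher, from 2.54 to 6.89 CPM (adjusted p = 0.00254). The phosphatases that reactivate cofilin went both ways. Ssh1 fell from 5.93 to 3.13 CPM (log2 -0.98, adjusted p = 0.0111). Ssh2, with more counts on average (317 against 136), rose from 7.95 to 13.2 CPM (log2 0.76, adjusted p = 0.00156). Among other proteins of monomer binding and filament turnover, 6 of 14 were higher and 2 lower, and the 57.1% called lay below the share over all genes. Coro2a, a coronin, rose from 1.03 to 8.59 CPM (log2 3.10, adjusted p = 1.9e-05), and Twf1, which encodes the monomer-binding protein twinfilin-1, fell from 38.8 to 22.0 (log2 -0.79, adjusted p = 0.00351).

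Formins and other elongation factors were higher for 11 and lower for 5 of 19 at P0 against E12.5 (84.2% called). Cobl, which encodes the nucleator cordon-bleu, rose from 1.73 CPM in the youngest stage to 5.54 at E17 and 18.4 at P0 (log2 3.57 from E12.5 to P0, adjusted p = 1.72e-05), and Diaph2, a formin, fell from 7.15 to 2.06 CPM (log2 -1.61, adjusted p = 0.000158). Of the 4 other actins tested, Acta1 was called higher (log2 0.39, SE 0.11, adjusted p = 0.0132) and 3 were not called.

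**Figure D4:**
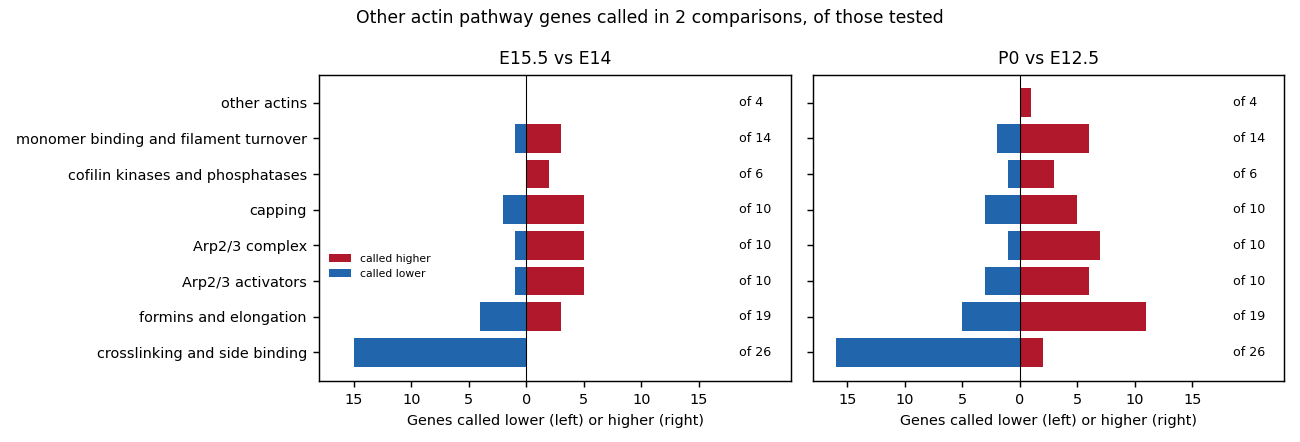
Number of other actin pathway genes called lower (left, blue) or higher (right, red) in each of 8 lists, at E15.5 against E14 and at P0 against E12.5, with the number tested at the right. In the crosslinking list 15 of 26 were lower and 0 higher at E15.5, while in the Arp2/3 complex 5 of 10 were higher and 1 lower.

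Markers of other cells moved over the same steps as the members. Summed levels of 7 meningeal fibroblast markers were 64.8 to 103 CPM at E12.5 and E14 and 2.66 to 7.84 CPM later. Choroid plexus markers, of which 6 of 7 were tested and all 6 were lower at E15.5 than at E14, summed to 1124 and 1130.2 CPM at E14 and to 11.1 and 13.6 at E15.5, and Kcnj13 was at 0 in both P0 libraries. Red blood cell markers, of which all 9 tested were lower at P0 than at E12.5, summed to 11214 and 11607 CPM at E12.5 and to 1862 and 1439 at P0.

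Other lists rose with age. Of 9 markers of the ganglionic eminence, 6 were higher at E15.5 than at E14, and the list summed to 15.1 and 15.9 CPM at E12.5, where Gsx2 was at 0 in both libraries, and to 175 and 166 at P0. Of 8 markers of astrocytes and the oligodendrocyte lineage, 7 were higher at P0 than at E12.5, from 19.7 and 20.2 CPM to 147 and 122. Smooth muscle and pericyte markers summed to 110 to 220 CPM, most of it from Acta2 and Rgs5. Of the 6 tested, 3 were lower and 1 higher at P0 than at E12.5. The 8 tested microglial markers had 6 lower at E15.5 than at E14 and 2 lower at P0 than at E12.5. The part of these cells in the changes of the 8 genes was not tested.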

How the data were processed

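Footprints were counted in 10 libraries of 5 stages, grouped by the stage in the labels. The deposited values are whole-number counts per gene, not scaled. Per the study's methods, the authors trimmed and collapsed reads, removed those from rRNA, tRNA and snoRNA, and aligned the rest with STAR, keeping reads with several matches. DeepShape-prime and tximport are named there, and whether they made this table is not stated. Of 22373 identifiers, 22274 matched a symbol.

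Genes with at least 32 footprints in a stage (13484) were fitted in R 4.3.3 with TMM factors (edgeR 4.0.16) and limma-voom (limma 3.58.1), with 1 coefficient per stage over all 10 libraries and two-sided moderated tests adjusted by Benjamini-Hochberg. Counting error alone was small, since the lowest member averaged 2868 counts, and with 2 pools per stage the replicate spread limits precision. Ratios between members used unscaled counts, without correction for length, which cancels between stages. They were tested over the 5 stages by an exact permutation test over 113400 arrangements. The code was tested on simulated data.

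The alternatives were total counts, median-of-ratios size factors, leaving out Hist genes, no filter, edgeR's quasi-likelihood test, DESeq2 1.42.0, sample quality weights, a fit of only the stages compared, the replicate number as a block, and leaving out each library. Besides the members, the text names in each pathway list the genes with the largest called rise and fall from E12.5 to P0 with a mean of at least 100 counts, and the 2 genes most like each member. Members and lists were chosen with earlier results of these data known. Acta2, Actc1, Actg2, Capza2, Ssh2, Tesk1 and single markers were named after their values were seen. Arpc4 and Cnn2 were named for their CArG box.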

Additional observations from a re-analysis of the deposited data

How the results depend on the processing

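Of 760 recomputed changes of single members, 682 kept their direction and their side of the threshold. Calls of members that changed are given with each gene, and the cause of the changes below was not tested. The number of members called at E15.5 against E14 was 2, beside 36.1% of all genes. It was 5 with total counts only (Actb, Actg1, Cfl1, Cfl2 and Pfn2), beside 44.9%. At P0 against E17 it was 2, but 1 without a filter on low counts, 0 with sample quality weights, 0 in a fit of those stages alone and 1 with the replicate block. The shares of all genes called were 20.5, 12.6, 5.18, 0 and 15.8% in the same order, where the share without a filter is of 19369 genes. Leaving out 1 library moved the number of members called in both comparisons and at P0 against E12.5, and also the share of all genes called. At P0 against E12.5, 5 members were called, beside 62.1% of all genes. The other alternatives gave 4 to 6, beside 45 to 66.4%.

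With all libraries kept, fitted log2 changes that reversed lay below the fold threshold, except for Cfl2 and Capzb at P0 against E12.5 with total counts. With total counts only they were 0.0027 for Cfl2 and 0.046 for Dstn at E14 against E12.5, 0.052 for Actg1 and 0.027 for Capzb at E17 against E15.5, 0.11 for Dstn at P0 against E17, and 0.44 for Cfl2 (adjusted p = 0.15) and 0.49 for Capzb (adjusted p = 0.0015) at P0 against E12.5. With median-of-ratios size factors they were -0.012 for Capzb at E15.5 against E14, 0.0071 for Actg1 at E17 against E15.5 and 0.034 for Dstn at P0 against E17, and with DESeq2, in the same order, -0.012, 0.0070 and 0.077. Dstn at P0 against E17 was also 0.021 without Hist genes and 0.045 with edgeR, and Cfl1 in that step was -0.015 without a filter and -0.041 with sample quality weights.

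When 1 library was left out, ranges that crossed 0 at E14 against E12.5 were -0.19 to 0.075 for Cfl2, -0.044 to 0.021 for Dstn and -0.070 to 0.23 for Pfn1. Others were -0.022 to 0.033 for Capzb at E15.5 against E14 and -0.046 to 0.074 for Cfl2 at E17 against E15.5. At P0 against E17 they were -0.10 to 0.15 for Cfl1, -0.36 to 0.37 for Dstn and -0.43 to 0.13 for Pfn2, and at P0 against E12.5 -0.57 to 0.34 for Cfl2, -0.15 to 0.58 for Dstn and -0.12 to 0.041 for Capzb. The log2 change of the ratios from E12.5 to P0 ranged from 0.0053 to 0.43 for Actg1/Actb, -1.02 to -0.36 for Cfl2/Cfl1, -0.60 to -0.12 for Dstn/Cfl1 and 1.33 to 1.94 for Pfn2/Pfn1.

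Correlations of same-numbered deviations between stages ran from -0.64 to 0.43 and did not share a sign. Those of E12.5 with the later stages were all negative (-0.64 to -0.11). The rest were 0.21 to 0.43, except -0.04 for E14 with E17. The labels do not say what libraries of the same number share. With the replicate block, 1 member rather than 2 was called at P0 against E17 (Actg1, with Actb at adjusted p = 0.0621), and no other member call changed. Over all genes the block called 4, 4562, 819, 2124 and 8017 genes in the 4 steps and at P0 against E12.5, against 86, 4868, 1219, 2767 and 8371 without it.

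Counts of all genes and of pathway genes moved most in the steps with few calls. Over the alternatives that kept all libraries, all genes called ranged from 4 to 655 at E14 against E12.5, from 773 to 3717 at E17 against E15.5 and from 0 to 2884 at P0 against E17. The 0 came from limma-voom on those stages alone, where 2962 genes had p under 0.05 before adjustment. On all stages, edgeR called 2482 and DESeq2 2224. Pathway genes called higher and lower at P0 against E17 were 11 and 11, but 21 and 9 with total counts only, 3 and 6 with sample quality weights and 7 higher with the replicate block, and leaving out 1 library gave 2 to 21 and 4 to 20. Those called higher at E15.5 against E14 were 23, but 43 with total counts only.

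With 2 pooled libraries per stage, small changes of the members lie within the spread between pools. The shallowest library, P0 replicate 1, still held 559 footprints or more for each member.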

Other observations

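Footprints were also counted on muscle actins, which non-muscle tissue makes little of. Relative to the summed counts of Actb and Actg1, those of Acta1, the skeletal muscle actin, were 0.814 to 1.45%, those of Acta2, the smooth muscle actin, 0.249 to 0.915%, those of Actc1, the cardiac actin, 0.0242 to 0.136%, and those of Actg2, the enteric smooth muscle actin, 0.00806 to 0.221%. P0 replicate 1 gave the lowest of these shares for each of the 4 genes. The mean of Acta1 was 149 CPM in the youngest stage, 163 at both E15.5 and E17, and 195 at P0. Over the same stages Myh11, a smooth muscle myosin, stayed between 0.503 and 0.638 CPM in stage means and Des, the muscle intermediate filament desmin, between 0.0835 and 0.473 CPM. The actin coding sequences are closely related, and the part of reads shared between them in these counts was not tested.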
